A study of Homo sapiens with 2 samples.

Results

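Far intergenic peaks are the NUDT21 peaks that lie away from every annotated gene. A peak was a member where it overlapped no GENCODE 44 gene of any type, lay more than 3 kb from any transcript start, and had its summit more than 50 kb from the nearest protein-coding transcript start. On chromosomes 1 to 22, X and Y, 3153 of 92722 peaks of replicate 1 met this rule, a share of 3.4% (95% Wilson interval 3.29 to 3.52%). In replicate 2, 1732 of 66671 peaks did, a share of 2.60% (2.48 to 2.72%). The mean share was 3.0% ± 0.568 (SD, n = 2). Only position chose the members, so every other property could be compared.

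The peaks came from CUT&Tag, in which a transposase tethered to an antibody cuts the DNA around the bound protein, so that sequenced fragments mark where it sits. The antibody was against NUDT21, and the cells were J.gamma1, an established cell line of T-cell acute lymphoblastic leukemia (T-ALL). Both samples were biological replicates of 1 group with no treatment in the labels, so no conditions were compared, and no control sample was analysed here. As a check of the cell line, peaks within 3 kb of a transcript start in both replicates were counted. Such peaks were present at 57% of all 20033 protein-coding genes, at 7 of 10 listed T-cell surface and signalling genes and at 21 of 30 T-lineage and T-ALL transcription factors. They were present at 17 of 20 housekeeping genes and at 8 of 20 genes that belong to other tissues. With lists this short the check is coarse.

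NUDT21 is the small subunit of cleavage factor Im, a complex that binds UGUA in nascent RNA and helps to choose where an mRNA is cut and polyadenylated. Its best known place of action is therefore the transcribed gene. DNA far from coding genes can still hold enhancers, which are often transcribed into short unstable RNAs, and it can hold insulators, unannotated transcripts and large families of repeated sequence. Repeated sequence matters for peak lists because a short read from it can be placed at several positions.

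The following windows of the hg38 reference were read on the plus strand around replicate 1 summits. They show what lay beneath the strongest members, and beneath the members of lowest fold-rank sum nearest to 2 T-lineage genes. Each holds 201 bases, written in lower case with every CG pair in capitals. The HDAC4 window is chr2:239644532-239644732, the TPTE window chr21:7098967-7099167, the PMEPA1 window chr20:57830172-57830372, the BCL11B window chr14:98984672-98984872 and the RUNX3 window chr1:25015768-25015968.
HDAC4 window: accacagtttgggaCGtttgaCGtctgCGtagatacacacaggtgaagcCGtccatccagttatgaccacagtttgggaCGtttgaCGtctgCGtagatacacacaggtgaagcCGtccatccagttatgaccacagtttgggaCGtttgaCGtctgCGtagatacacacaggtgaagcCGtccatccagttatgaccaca
TPTE window: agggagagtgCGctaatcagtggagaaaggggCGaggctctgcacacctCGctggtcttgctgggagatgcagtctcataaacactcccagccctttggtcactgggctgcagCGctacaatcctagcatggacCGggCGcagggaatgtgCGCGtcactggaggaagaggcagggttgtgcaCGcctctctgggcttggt
PMEPA1 window: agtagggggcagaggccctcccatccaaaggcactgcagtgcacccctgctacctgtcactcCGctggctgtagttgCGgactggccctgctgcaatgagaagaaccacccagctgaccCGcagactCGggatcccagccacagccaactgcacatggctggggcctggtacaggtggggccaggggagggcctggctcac
BCL11B window: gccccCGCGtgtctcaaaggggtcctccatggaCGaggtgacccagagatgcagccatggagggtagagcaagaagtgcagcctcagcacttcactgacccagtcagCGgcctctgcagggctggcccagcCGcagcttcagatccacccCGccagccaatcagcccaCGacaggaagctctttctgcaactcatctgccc
RUNX3 window: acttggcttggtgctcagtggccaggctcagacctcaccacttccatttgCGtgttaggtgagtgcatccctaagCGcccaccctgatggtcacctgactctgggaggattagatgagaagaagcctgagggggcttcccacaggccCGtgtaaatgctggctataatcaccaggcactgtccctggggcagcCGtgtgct
The HDAC4 window is a tandem repeat: moved along itself by 65 bases, it matched at 100% of positions. The TPTE window holds 9 CG pairs, and the same 201 bases stood without a mismatch inside another strong member. The PMEPA1, BCL11B and RUNX3 windows were single-copy sequence with 4, 7 and 4 CG pairs.

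Far intergenic sequence carried few peaks for its size. The rule was met by 745 Mb of the called genome, 25.4% of 2938 Mb. It held 4.23 peaks per Mb in replicate 1 and 2.32 in replicate 2. Near intergenic sequence, which met the same rule except that a protein-coding start lay at 50 kb or less, held 36.4 and 24.3 peaks per Mb, 8.60 and 10.4 times as many. The whole genome held 31.6 and 22.7 peaks per Mb. Near sequence was also richer in GC: of its 201-bp windows, 21.8% reached 50% GC, against 9.35% of far ones. The part of GC content in the difference of density was not tested.

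Far intergenic peaks also had lower folds than other peaks. Their median fold enrichment, the summit signal over the background level as deposited, came to 3.43 in replicate 1 and to 3.75 in replicate 2. It was 3.84 and 4.10 at near intergenic peaks and 3.98 and 4.24 over all peaks other than far ones. A median far peak rested on 26 fragments at its summit in replicate 1 and on 17 in replicate 2, and its fold was higher than that of 33.4% and 34.9% of its list. A fold of 5 or more was reached by 11.2% and 13.9% of far intergenic peaks, against 26% and 30.3% of all peaks of the lists. Their median lengths were 485 and 496.5 bp.

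Far intergenic peaks were found again in the other replicate less often than other peaks. Of the replicate 1 members, 1157 (36.7%, 95% Wilson interval 35.0 to 38.4%) shared 1 bp or more with a replicate 2 peak and are called touching, compared with 56.4% of all replicate 1 peaks. Of the replicate 2 members, 1205 (69.6%, 67.4 to 71.7%) touched a replicate 1 peak, compared with 85.7% of all replicate 2 peaks. The shares of the 2 lists differ in part by construction, since replicate 1 offered more peaks to touch. Nearly every partner was itself far intergenic, for 1149 of the 1157 and 1190 of the 1205.

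The difference was taken within each list. Against all peaks other than far ones, the far share was lower by 20.4 percentage points in replicate 1 (difference -20.4, 95% Newcombe interval -22.1 to -18.6) and by 16.6 points in replicate 2 (-16.6, -18.8 to -14.4). Against near intergenic peaks, which touched in 49.6% and 80.5% of cases, the differences were -13.0 points (-14.9 to -11.0) and -10.9 points (-13.3 to -8.61). All 4 intervals left out 0. Since far peaks were weaker and shorter, the other peaks were also weighted to their strength or length, an alternative chosen after seeing the data. Weighted to the same deciles of −log10 q, the peak caller's adjusted measure of how far a summit exceeds its background, the difference from all other peaks was -8.52 points in replicate 1 and -11.2 in replicate 2, and weighted to the same deciles of length it was -9.66 and -10.8. These intervals cover counting error only, and neighbouring peaks are not independent.

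**Figure D1:**
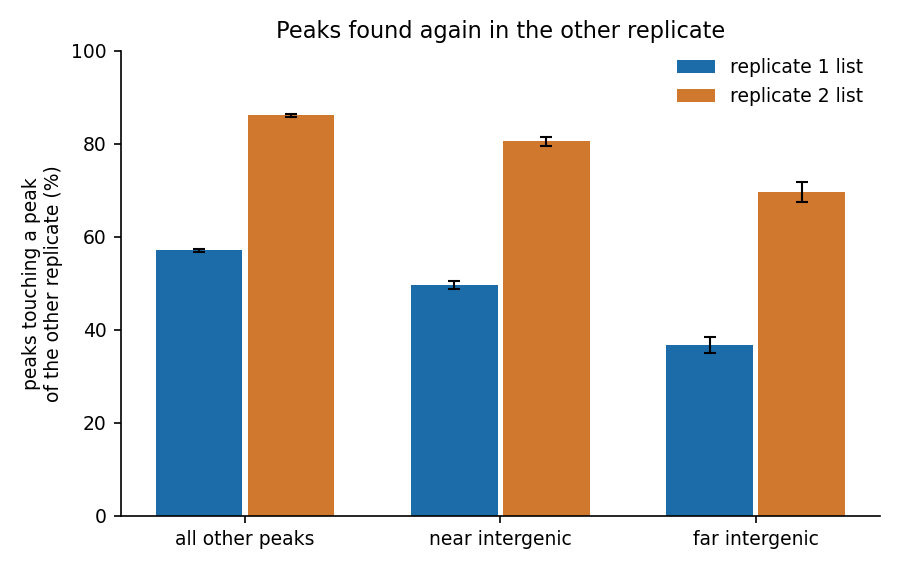
Percentage of peaks that touched a peak of the other replicate (y axis, from 0 to 100%) for all peaks other than far ones, near intergenic peaks and far intergenic peaks (x axis), with 1 bar for each list and 95% Wilson intervals as error bars. In both lists the far intergenic bar is the lowest, at 36.7% and 69.6%.

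Members that touched a peak of the other replicate were stronger and longer than the rest. In replicate 1 their median fold was 3.81 against 3.24, their median length 675 against 422 bp and their median summit 29 against 24 fragments. In replicate 2 the same medians were 3.88 against 3.51, 569 against 413 bp and 18 against 15 fragments. Length separated the groups most: taking 1 touching and 1 other member at random, the touching one was the longer in 74.4% of pairs in replicate 1 and 72.8% in replicate 2. A longer peak also has more bases with which to touch another.

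A fold of 5 or more was reached by 234 of 1157 touching members (20.2%) and 119 of 1996 others (5.96%) in replicate 1, a difference of 14.3 points (11.8 to 16.9). In replicate 2 it was reached by 206 of 1205 (17.1%) and 35 of 527 (6.64%), a difference of 10.5 points (7.27 to 13.3). High fold was thus commoner among touching members in both lists. Even so, the touching members stayed below the 26% and 30.3% of all peaks.

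Where the rule set its limit, at 50 kb, the 3 nearest peaks on either side had the following folds. The replicate 1 members nearest to the limit lay 50004 bp from TLR5, 50025 bp from MON2 and 50047 bp from NLK, with folds of 2.98, 4.75 and 3.54. The peaks just outside lay 49993 bp from INSIG1, 49956 bp from LHX2 and 49954 bp from JPH3, with folds of 2.62, 2.77 and 2.69. In replicate 2 the folds were 2.66, 2.91 and 4.18 inside, near GALNT9, RTL6 and ZNF469, and 3.27, 3.88 and 2.31 outside, near PREX1, GADD45G and GPC1.

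Farther out the number of members fell. The median distance to the nearest protein-coding start was 95 kb in replicate 1 and 92.3 kb in replicate 2, and 52.9% and 54.5% of the members lay within 100 kb. Starts of any gene type, noncoding ones included, were closer, at a median of 23.1 and 21.3 kb. In replicate 1, members beyond 250 kb and up to 500 kb touched in 26.2% of cases (21.2 to 31.9%), against 38.3% (36.0 to 40.6%) at 50 to 100 kb. The replicate 2 shares were 61.5% (52.1 to 70.1%) and 70.8% (67.8 to 73.6%), and these intervals overlap. Beyond 500 kb, 28.5% of 207 members touched in replicate 1 and 81.2% of 80 in replicate 2, and many of these lay in the repeated sequence of chromosome 21 before 11 Mb. Without that stretch, chosen after seeing the data, the shares were 17.8% of 107 members (11.7 to 26.1%) and 61.8% of 34 (45 to 76.1%).

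Far intergenic peaks stood in GC-rich stretches of a class of sequence that is mostly AT-rich. The 201-bp window at the summit reached a median of 60.2% GC (replicate 1) and 59.2% GC (replicate 2). Flanking windows of the same width, centred 1000 bp to either side, had medians of 51.2% and 51.5%. Far intergenic sequence as a whole, cut into windows of that width, had a median of 37.8%, and 9.35% of it reached 50% GC.

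Peak density followed GC content steeply. Peaks were sorted by the GC content of their summit windows, and sequence by that of fixed 201-bp windows. The 457 Mb of far sequence below 40% GC held 0 members in either list. An observed 0 leaves room for an expected count of up to about 3 in each. Sequence of 40 to 50% GC held 0.212 and 0.189 peaks per Mb, that of 50 to 60% held 22.3 and 15.3, and that of 60% or more held 244 and 105. Near intergenic sequence held 3.43 and 3.61 at 40 to 50%, 107 and 74.7 at 50 to 60%, and 551 and 328 at 60% or more. GC content of 50% or more was, however, a property of the lists and not of these members: 97.5% of all replicate 1 peaks and 96.4% of all replicate 2 peaks had it at their summits.

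**Figure D2:**
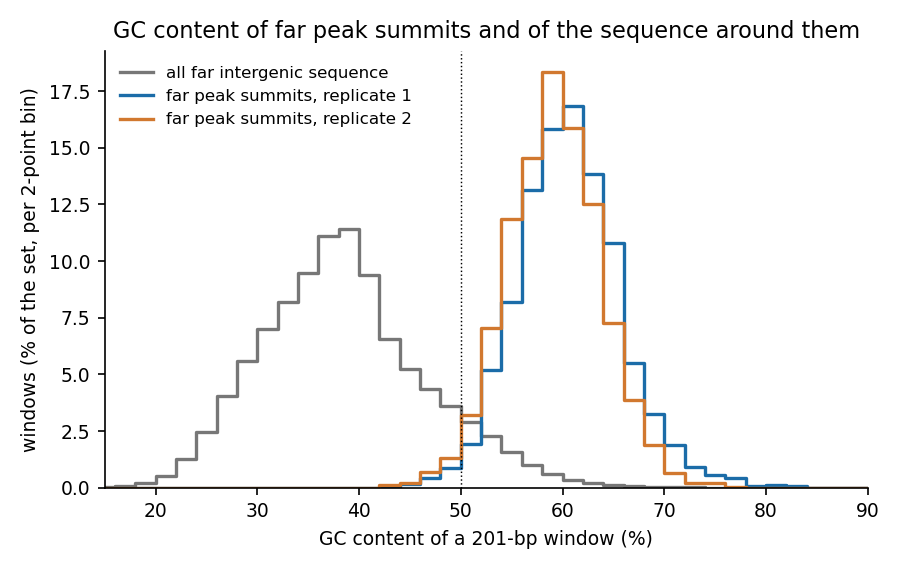
Distribution of GC content (x axis, in percent) over 201-bp windows, as a percentage of each set per bin of 2 points (y axis), for all far intergenic sequence and for the summits of far intergenic peaks of each replicate. The sequence has its median at 37.8% and the summits at 60.2% and 59.2%, and the dotted line marks 50%.

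At the limit of 50% GC, touching members were slightly more often GC-rich than the rest. In replicate 1 the shares with 50% GC or more were 99.1% and 98.2%, a difference of 0.939 points (0.0644 to 1.73), and in replicate 2 they were 98.8% and 95.1%, a difference of 3.69 points (1.95 to 5.94). Both intervals left out 0, the one of replicate 1 barely, and 6 alternatives ended this call. At a GC limit of 55% the difference was larger. In replicate 1 the shares were then 90.9% and 85.8%, a difference of 5.15 points (2.84 to 7.36). In replicate 2 they were 86.3% and 72.9%, a difference of 13.4 points (9.28 to 17.8). In replicate 2 the touching share rose with GC content, from 36.6% of 41 members below 50% to 63.9% at 50 to 60% and 78.7% above that. In replicate 1 it rose less, from 21.7% of 46 members to 34.7% and 38.7%.

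High GC content did not mean CpG islands. CpG islands are stretches rich in unmethylated CG pairs and lie at most housekeeping promoters. A peak was called CpG-island-like where it had a length of 200 bp or more, a GC content of 50% or more and at least 0.6 of the CG pairs that its C and G would give by chance. Of the far intergenic peaks, 165 (5.23%) in replicate 1 and 57 (3.29%) in replicate 2 were, against 13.5% and 11.7% of all peaks. The near intergenic shares were 5.67% and 3.74%, so the differences of -0.433 points (-1.28 to 0.496) and -0.448 points (-1.32 to 0.583) did not leave out 0. The median ratio of observed to expected CG pairs was 0.266 and 0.257.

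Words for known factors were counted in the summit windows on both strands. The CTCF core, AGGGGGC or AGGTGGC or AGATGGC, is a short part of the longer site of the insulator protein CTCF. It stood in 18% (16.7 to 19.4%) of far summits in replicate 1 and 16.9% (15.2 to 18.8%) in replicate 2. Flanks held it in 11.9% and 12.7%, and the summits of all peaks in 18.1% and 17.7%. So the core was commoner at far summits than beside them, and its share was close to that of all peaks. The summits were also richer in GC than the flanks, and the part of this in the difference was not tested.

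The RUNX word TGTGGT, bound by a family that includes the T-cell factors RUNX1 and RUNX3, stood in 14.7% and 16.3% of far summits and in 14.4% and 14.1% of flanks. The ETS word CGGAAG stood in 5.23% and 4.97% of summits, and in 3.55% and 3.84% of flanks. The E-box CAGNTG, read by factors such as TAL1 with its E-protein partners, stood in 56.3% and 56.6% of summits against 47.8% and 49.2% of flanks. The AP-1 word TGANTCA stood in 4.06% and 5.20% of summits and in 5.09% and 5.72% of flanks. Among the summits of all peaks, RUNX stood in 14.4% and 14.9% and ETS in 6.58% and 6.60%. The E-box stood there in 54.7% and 56.0% and AP-1 in 3.7% and 3.8%. ETS was thus commoner at far summits than in flanks, but rarer than at all summits.

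Words rich in A and T went the other way. TGTA, the DNA form of the RNA word that NUDT21 binds, stood in 43.1% (41.4 to 44.9%) and 46.8% (44.4 to 49.1%) of far summits, against 61.2% and 60.9% of flanks and 50.1% and 50.9% of all summits. The poly(A) signal AATAAA, which marks the 3' end of mRNAs, stood in 3.58% and 4.39% of far summits and in 17% and 15.8% of flanks. The GATA word AGATAA was at 2.09% and 3.64% against 8.26% and 7.36%, and the MYB word TAACNG at 6.98% and 9.41% against 13.3% in both. All summits held AATAAA in 3.75% and 4.08%, AGATAA in 2.18% and 2.69% and TAACNG in 7.90% and 8.88%. The summit windows were richer in GC than the flanks by the medians given above, and the part of base composition in these shares was not tested. Of the printed windows, those of PMEPA1 and RUNX3 each held 1 CTCF core, and TGTA was found in those of HDAC4, TPTE, PMEPA1 and RUNX3.

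Both lists together gave 3672 far intergenic regions after touching members were merged. Of these, 1126 (30.7%) held a peak of each replicate, 2004 a peak of replicate 1 only and 542 a peak of replicate 2 only. In the shared regions the summits lay a median of 125.5 bp apart, and 62.8% of pairs lay within 200 bp. A fold of 5 or more in both replicates was reached by 116 shared regions.

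The order of the folds was partly shared. Across the 1126 regions, Spearman's correlation between replicates was 0.572, and across the 829 whose summit sequence was in 1 copy in both it was 0.553. Regions of 1 genome are not independent replicates. The background level that each fold was divided by correlated more closely, at 0.868. Whether both folds share a control is not known, so the correlation of the folds is a description only.

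**Figure D3:**
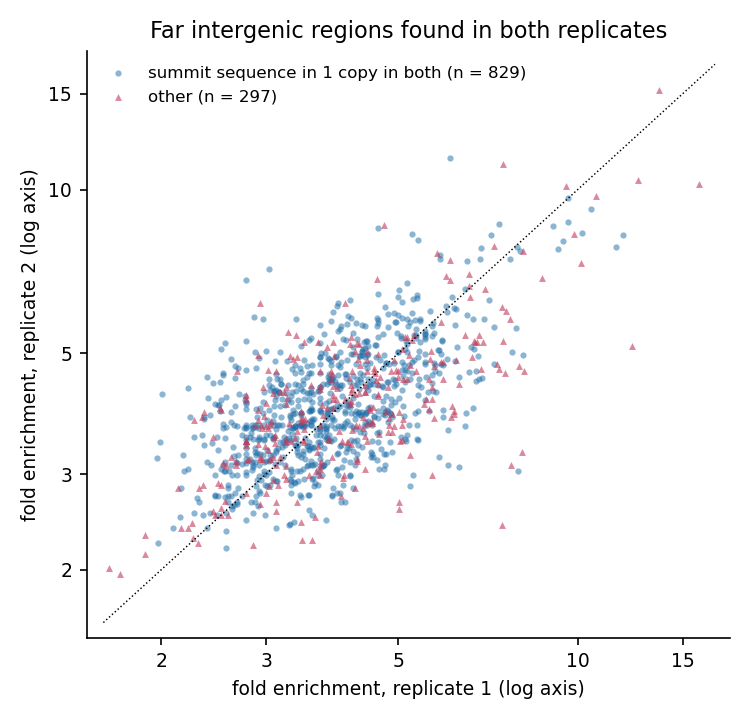
Fold enrichment in replicate 1 (x axis) against replicate 2 (y axis), both on log axes without units, for the 1126 far intergenic regions found in both. Circles are the 829 regions whose summit sequence was in 1 copy in both, triangles the other 297, and the dotted line marks equal folds. Spearman's correlation was 0.572 over all of them, and several of the highest folds are triangles.

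By the sum of its fold ranks, the strongest shared region was chr2:239644131-239644984, 243 kb from a start of HDAC4, a histone deacetylase that represses transcription. It had a replicate 1 fold of 13.7 and a replicate 2 fold of 15.2, on 153 and 102 fragments. This is the tandem repeat printed above, and the median 24-base word of its window occurred 8 times in the genome. That count includes copies within the repeat itself, since only 65 of the window's 178 words were distinct.

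The region that followed, chr21:7096730-7099560, lay on the short arm of chromosome 21, with folds of 16 and 10.2 on 190 and 72 fragments. Its nearest coding gene was TPTE, a gene expressed mainly in testis, 3422 kb away. The fourth, chr21:7478583-7481006, had folds of 10.7 and 9.71 and the same nearest gene. The window of each stood inside the other region with 201 of 201 bases the same. Their words stood in 5 places, so a read from these windows fits both regions equally.

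The third, chr7:157453711-157454514, lay 72.3 kb from DNAJB6, which encodes a co-chaperone, and had folds of 12.6 and 10.4 on 48 and 26 fragments. Its window held words in many copies, with a median of 221 at the replicate 1 summit and 19 at the replicate 2 summit. The fifth, chr20:57829601-57832513, was the only one of these 5 in single-copy sequence. It lay 119 kb from PMEPA1, which restrains TGF-β signalling, and had folds of 10.5 and 9.22 on 56 and 30 fragments.

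Some peaks seen in 1 replicate only were also strong. The highest in replicate 1 was chr5:69710203-69711042, 117 kb from GTF2H2C, a copy of a TFIIH subunit gene, with a fold of 10.8 on 41 fragments and words in 9 copies. The highest in replicate 2 was chr10:6647496-6648115, 67.6 kb from PRKCQ, the protein kinase C of T-cell receptor signalling. Its fold was 7.73 on 19 fragments, in single-copy sequence.

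Most members stood on sequence that occurs in 1 place. At least 90% of the 24-base words of the summit window were in 1 copy for 70.2% of the members in replicate 1 and 76.8% in replicate 2, against 68.7% and 74.4% of all peaks. A window with no such word was found for 9.36% and 5.02% of the members, against 5.07% and 2.92% of all peaks. Touching members were the more often unique in replicate 1, 76.6% against 66.4%, a difference of 10.1 points (6.90 to 13.3). In replicate 2 the shares were 77.3% and 75.7%, and the difference of 1.55 points (-2.70 to 6.01) did not leave out 0.

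The repeated members formed small sets with values of their own. The median word was in over 100 copies beneath 146 members of replicate 1 (4.63%), of which 21.2% touched. In replicate 2 it was so beneath 59 members (3.41%), of which 59.3% touched. Over all peaks this held for 9263 of 92722 and 4576 of 66671, so such words were rarer beneath members. On chromosome 21 before 11 Mb, around the short arm, there were 100 members in replicate 1 and 46 in replicate 2, and 0 of them had a unique window. Of these, 40% (30.9 to 49.8%) touched in replicate 1 and 95.7% (85.5 to 98.8%) in replicate 2.

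Many far intergenic regions lay close together. The median gap between neighbouring regions was 8.78 kb, and 51.5% of gaps were of 10 kb or less. Joined at that distance, 1955 regions (53.2%) fell into 339 clusters of at least 3 regions, 261 pairs were formed and 1195 regions stood alone. The median cluster held 4 regions over 12.9 kb, 43 clusters held 10 or more, and 261 held at least 1 region found in both replicates. The same counts are not given here for near intergenic peaks or all peaks, which were denser per Mb. Clustering is therefore not shown to be particular to these members.

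Cluster members were found again more often than the others. In replicate 1, 44.6% of 1737 members in clusters touched against 27.0% of 1416 outside, a difference of 17.5 points (14.2 to 20.8). In replicate 2 it was 78.0% of 1039 against 57.0% of 693, a difference of 21 points (16.5 to 25.4). Clusters were built from both lists, so they were not chosen apart from the other replicate. Members in clusters were also longer, 561 against 437 bp and 548 against 455 bp, and more often unique, 77.5% against 61.2% and 81.0% against 70.4%. The part of these was not tested.

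The cluster with most regions, chr4:1458746-1572114, held 33 regions, of which 8 were in both replicates, and NKX1-1 was nearest to most of them. The next, chr7:1283898-1387085, held 32 with 13 in both, mostly nearest to UNCX. NKX1-1 and UNCX encode homeobox factors of the developing nervous system and skeleton. Their peaks were weak, with median folds of 3.20 and 3.69 near NKX1-1 and 3.04 and 3.67 near UNCX in replicates 1 and 2.

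The cluster chr2:239633665-239730783 held 28 regions, 14 of them in both, and includes the tandem repeat near HDAC4. A pair of neighbouring clusters, chr17:77735577-77807773 and chr17:77821188-77875259, held 26 and 25 regions with 14 and 17 in both. All of their regions were nearest to TNRC6C, a scaffold of microRNA silencing. Their median folds were the highest of these 5 clusters, 4.13 and 4.42 in the one and 4.83 and 4.81 in the other.

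**Figure D4:**
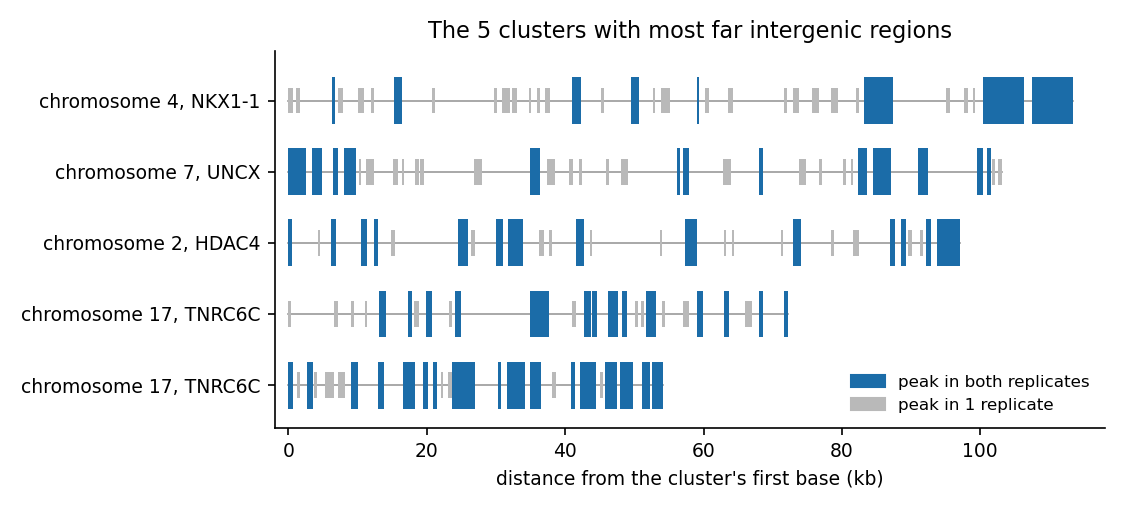
Position of each far intergenic region (box, drawn to scale) along the 5 clusters with most regions, as distance from the cluster's first base in kb (x axis), named by chromosome and nearest gene. Tall boxes are regions with a peak in both replicates and short boxes those with a peak in 1. The clusters hold 33, 32, 28, 26 and 25 regions, with 8, 13, 14, 14 and 17 tall boxes.

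Members were unevenly spread over the chromosomes. Per Mb of far intergenic sequence, chromosome 22 held most with 22.2 peaks in replicate 1 and 12.4 in replicate 2. It was followed by chromosome 17 with 16.7 and 10.4, chromosome 20 with 14.7 and 10.1, and chromosome 21 with 14.2 and 7.21. On chromosome 21, 100 of 181 members in replicate 1 and 46 of 92 in replicate 2 lay before 11 Mb, with 0 unique windows. Chromosomes 3, 4, 5 and 18 and both sex chromosomes held at most 1.44 and 0.653. The order over 23 chromosomes, with Y left out, was nearly the same in both replicates, with a Spearman correlation of 0.993. Its correlation with the share of GC-rich windows in the far sequence of each chromosome was 0.779 and 0.781.

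Members also lay towards chromosome ends. Within 5 Mb of an end stood 34.3% (32.7 to 36.0%) of the members in replicate 1 and 31.3% (29.2 to 33.5%) in replicate 2, while 6.68% of the far intergenic sequence lay there. All peaks had shares of 24.9% and 27.1%.

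**Figure D5:**
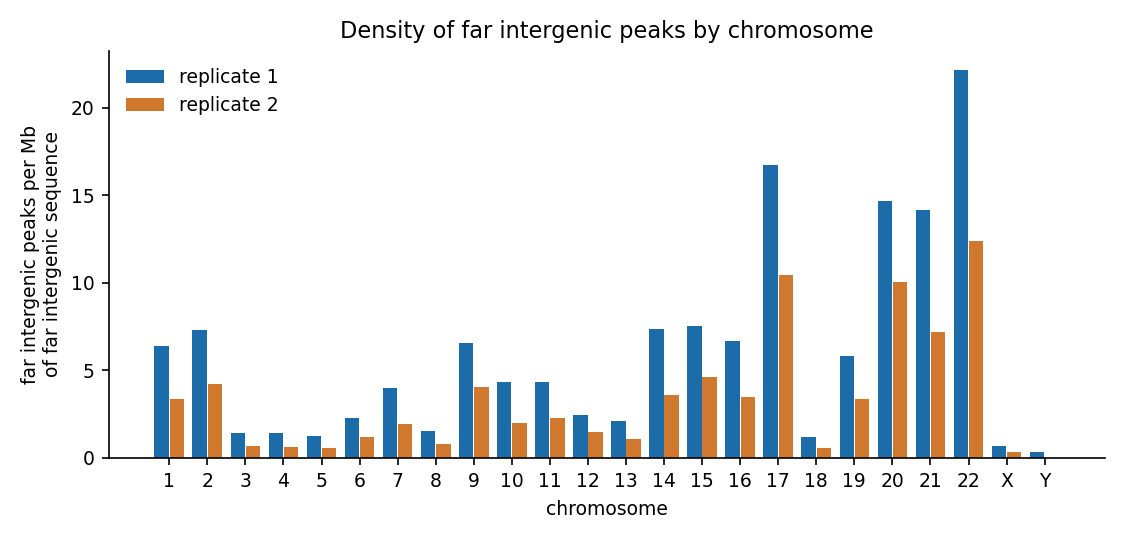
Far intergenic peaks per Mb of far intergenic sequence (y axis) on each chromosome (x axis), with 1 bar for each replicate. Chromosomes 22, 17, 20 and 21 stand highest in both replicates, with 14.2 to 22.2 peaks per Mb (replicate 1) and 7.21 to 12.4 (replicate 2). Of the chromosome 21 peaks, 100 of 181 and 46 of 92 lay in the repeated sequence before 11 Mb.

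The nearest coding gene of each shared region was recorded without any claim that the region acts on it. The 1126 shared regions had 437 nearest genes, 9.64% of the 4531 protein-coding genes that are nearest to any far intergenic sequence. Of these, 238 had 1 region and 55 had 5 or more. The median distance was 92.2 kb.

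The 10 genes with most shared regions took 238 regions, 21.1% of all. TPTE led with 40 regions on the short arm of chromosome 21 and 0 in unique sequence. TNRC6C followed with 37, of which 32 were unique. HS6ST1, a heparan sulfate sulfotransferase, had 32, PMEPA1 29 and HDAC4 26, of which 29, 28 and 21 were unique.

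The remaining 5 genes were NTMT1, an N-terminal methyltransferase, with 20 regions, NDUFA10, a subunit of respiratory complex I, with 16, and RXRA, the retinoid X receptor, with 15. They were followed by BMP7, a bone morphogenetic protein, with 12, and BCL11B with 11. Per Mb of the far sequence nearest to the gene, TNRC6C had 221 regions, NTMT1 196, PMEPA1 177 and TPTE 10.7. The far sequence nearest to TPTE came to 3742 kb, against 167 kb for TNRC6C. The part of this length in the counts was not tested.

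Among 30 transcription factors of the T lineage and of T-ALL, 17 were nearest to some far intergenic sequence, and 7 of these (41.2%) had a shared region, beside the 9.64% of all such genes. Of the 20 housekeeping genes 4 had such sequence and 1 had a region, the transferrin receptor gene TFRC. Of the 20 genes restricted to other tissues 6 had such sequence and 0 a region, and of the 10 T-cell surface and signalling genes 2 had such sequence and 0 a region. The counts are small, and the length of far sequence differed between genes, from 30.5 kb at ERG to 899 kb at BCL11B among the 7.

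BCL11B encodes a factor that commits progenitors to the T lineage, and the gene desert downstream of it is known for distant T-cell enhancers. All of its 11 shared regions lay downstream, from 122 to 1061 kb from its start, and 10 were unique. BCL11B starts at base 99272197 and its upstream neighbour SETD3 at 99480889. Most of the 899 kb of far sequence nearest to BCL11B therefore lay downstream too, so the side was largely fixed by position. Replicate 1 folds ran from 2.77 to 7.46, and replicate 2 folds from 2.42 to 7.14. The one with the lowest sum of fold ranks was chr14:98984557-98985263, whose window is printed above, with folds of 6.22 and 5.63 on 55 and 30 fragments. The highest single folds were not shared: 7.46 in replicate 1 at chr14:99066726-99068309 stood beside 2.42 in replicate 2, and 7.14 in replicate 2 at chr14:99138140-99139883 stood beside 3.03 in replicate 1.

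RUNX3 encodes a factor of cytotoxic T cells, and its 10 shared regions flanked the gene on both sides at 50.7 to 80.6 kb from a coding start, 9 of them unique. Their folds ran from 2.84 to 4.96 and from 2.53 to 5.72. The strongest was chr1:25015550-25016142, printed above by its window, with folds of 4.96 and 5.72 on 37 and 27 fragments. All 10 regions lay in clusters.

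The other 5 listed factors had 1 shared region each, all in unique sequence. MYCN, a MYC relative, had folds of 5.20 and 3.70 at chr2:15790264-15790681. ETV6, an ETS repressor, had folds of 3.71 and 3.90 at chr12:11949681-11950200. ERG, another ETS factor, had 2.51 and 3.92, and LEF1, a partner of β-catenin, had 2.01 and 4.21. LMO1, a cofactor that is activated in some T-ALL, had 3.30 and 2.87.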

How the data were processed

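CUT&Tag with a NUDT21 antibody was done on 2 biological replicates of J.gamma1. Per the study's methods and the submitters' processing notes, the authors trimmed reads with fastp and aligned them to hg38 with Bowtie2 2.2.5. Peaks were called per replicate with MACS3 3.0.1, after removal of duplicates with Picard according to the study's methods. Each deposited list gave a fold enrichment at the summit (a ratio to the background level), a −log10 p and a −log10 q, and a deposited score derived from the q, which was not used. The total depth of each library is not given in the sources used here. Fragments at a summit and the background level were solved from the deposited fold and −log10 p, which gave a solution for 100% of peaks. This takes the pileup of replicate 1 as scaled by 0.921, and counting error grows as fragments become fewer.

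Peaks were classified against GENCODE 44, and GC content, CG pairs and words were read from hg38. Copy number was the count of each 24-base word on both strands of the main chromosomes. Shares carry 95% Wilson intervals and differences 95% Newcombe intervals, and a difference was called where the interval left out 0 on the same side in both replicates. Intervals cover counting error only, since amplified fragments and neighbouring peaks are not independent. The scripts used Python 3.11.15 with numpy 2.4.6, scipy 1.17.1, pandas 2.3.3 and numba 0.67.0, and were tested on simulated data.

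Named regions were the 5 shared regions that ranked highest by fold over both replicates (lowest rank sum), the highest unshared peak of each replicate and the 5 clusters with most regions. Named genes were the 10 nearest to most shared regions and the T-lineage and T-ALL factors with at least 1. The members, lists and rules were chosen with earlier results of these data known. Alternatives covered the q limit, the distance limit, the definition of touching, unique sequence, GC and fold limits, cluster distance and each replicate alone. A few repeat windows are not reported here. Peaks off the main chromosomes were left out, and repeat masking was not analysed because the reference used is not masked.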

Additional observations from a re-analysis of the deposited data

Results flagged for a closer look

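Signal outside the main measurement stood on sequences other than chromosomes 1 to 22, X and Y, which the rule left out. Replicate 1 held 4440 of them and replicate 2 held 1861, which is 4.57% and 2.72% of the deposited lists, and no control sample was analysed to set beside them. Their distance to genes was not measured, so how many would be far intergenic is not given.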

How the results depend on the processing

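Over 65 alternative values, 51 pointed the same way on the same side of the threshold, or moved little. Both touching differences and the high-fold difference did so under each alternative run. With a replicate left out, the difference from all other peaks ran from -20.4 to -16.6 points, that from near intergenic peaks from -13.0 to -10.9, the high-fold difference from 10.5 to 14.3, the GC-rich difference from 0.939 to 3.69, the CpG-island-like difference from -0.448 to -0.433, the share of far peaks from 2.60 to 3.4%, and the clusters from 148 to 286. The unique-sequence difference ran from 1.55 to 10.1 points, and replicate 1 alone called it. At over 100 kb from protein-coding starts the replicates went opposite ways. There it was 9.72 points (4.70 to 14.5) in replicate 1 and -7.77 (-13.8 to -1.22) in replicate 2.

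The GC-rich difference of 2.31 points was no longer called at a −log10 q of 5 or more (1.61), at over 50 kb from any transcript start (1.45), at 50% reciprocal overlap (1.32), with summits within 200 bp (1.6), in unique windows (0.66) or at a GC limit of 45% (0.173). At a GC limit of 55% the GC-rich difference was larger and still called, at 5.15 points in replicate 1 and 13.4 in replicate 2. The CpG-island-like difference of -0.440 points, which was not called, turned to 0.355 at the q limit. The share of far peaks, 3.0%, moved to 2.21% at the q limit, 1.39% at over 100 kb and 0.642% at over 50 kb from any transcript start. The 339 clusters became 176 at the q limit and 147 at over 100 kb. By construction these limits leave fewer members, and the cause of the other changes was not tested.

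The repeat share was not run, since the reference holds no masking. No paired analysis was possible because the replicates form a single group. The median summit rested on 26 fragments in replicate 1 and 17 in replicate 2, and whether depth accounts for peaks found in 1 list only was not tested.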
